A study of Mus musculus with 17 samples.

Results

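The genes described here encode the protein subunits of the mitochondrial respiratory chain, of ATP synthase and of cytochrome c, and they fall into a nuclear and a mitochondrial set. They were chosen by symbol: names starting Ndufa, Ndufb, Ndufc, Ndufs or Ndufv without the Ndufaf assembly factors, Sdha to Sdhd, Cyc1, Cycs, names starting Uqcr, Cox4i, Cox5 to Cox8 or Atp5, and the 13 protein genes of the mitochondrial chromosome. After 5 pseudogenes were left out, 102 of the 27179 gene identifiers in the count table were members, 89 of them nuclear and 13 mitochondrial. Of the nuclear members 84 had enough reads to be tested, and all 13 mitochondrial genes did. The other nuclear members were Cox7b2 and Cox8c with 0 reads over all libraries, which allows up to 3 counts, Uqcr11 with 3, Ndufa4l2 with 4 and Cox8b with 13.

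RNA sequencing had been done on thymocytes of C57BL/6 mice that were wild-type (WT) or carried an Lmo2 transgene (TG). Lmo2 is a transcriptional adaptor that acts as an oncogene in T cells. The cells were CD4 and CD8 double-negative (DN) thymocytes of stage DN2 or the later DN3a. The 17 libraries formed 6 groups: WT young DN2 (2 libraries), and TG young DN2, WT young DN3a, TG young DN3a, WT old DN3a and TG old DN3a (3 each). Young mice were 2.5 to 3 weeks old, WT old mice 8 to 10 weeks and TG old mice 6 to 10 weeks. Each library came from 1 mouse, and 5 of the 12 mice gave both a DN2 and a DN3a library. Old mice were all female, while each young group held 1 male. Neither the transgene promoter nor the sorting gates are stated in the labels used, which limits what cells the transgenic groups stand for.

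The respiratory chain passes electrons from NADH (complex I) and succinate (complex II) through complex III and cytochrome c to oxygen at complex IV, and the proton gradient made on the way drives ATP synthase (complex V). Its subunits come from both genomes: mitochondrial DNA is transcribed from both strands into long precursors that are cut into single messenger RNAs, while nuclear subunits are transcribed as separate genes, translated in the cytosol and imported. Early thymocytes proliferate and use both glycolysis and respiration. By complex, the nuclear members were 38 genes of complex I, 4 of complex II, 9 of complex III, 20 of complex IV, 17 of complex V and the cytochrome c gene Cycs. The mitochondrial members were 7 complex I genes (mt-ND1 to mt-ND6 and mt-ND4L), mt-CYTB of complex III, mt-COX1 to mt-COX3 of complex IV, and mt-ATP6 and mt-ATP8 of complex V.

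Libraries held 7183303 to 11360308 counted reads, and levels are given in CPM, counts scaled to a common library total with TMM factors. A read equalled 0.0880 to 0.139 CPM. Lmo2 itself was at 92.3 to 156 CPM in TG DN2, 31.7 to 39.4 in TG young DN3a and 19.5 to 27.8 in TG old DN3a, against at most 0.847 in any WT library. Il2ra, which marks both stages, was high in every group (means of 1402 to 2644 CPM), and Cd44 was lower in each DN3a group (means of 3.52 to 8.65 CPM) than in WT (20.9) or TG (48.5) DN2. Kit had means of 139 CPM in WT DN2 and 586 in TG DN2. In DN3a its means were 67.5 in WT young, 122 in TG young, 75.1 in WT old and 213 in TG old. The TG old DN3a mean of Kit thus lay above that of WT DN2. Ptcra, the pre-T-cell receptor alpha gene that DN3 cells express, was at only 4.001 CPM in TG DN2 against 121 in WT DN2, and at 19.99 in TG old DN3a. Cd3e (61.9 against 637 CPM) and Rag1 (79.1 against 590) were also lower in TG DN2 than in WT DN2. In 4 libraries an unnamed identifier of 5868 bases took over 8% of reads: TG young DN2 replicates 2 and 3, TG young DN3a replicate 1 and WT old DN3a replicate 1. Over all libraries it took 0.306 to 16.6%, and results that rest on those libraries are given below with and without them. In bulk RNA, fewer cells that express a gene and less of its RNA per cell cannot be told apart.

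Levels within the chain spanned a wide range. Per kilobase of gene length and as the mean of the 6 groups, the highest nuclear members were Atp5b (585 CPM per kb) and Atp5a1 (345), the beta and alpha subunits that form the catalytic head of ATP synthase, followed by Cox4i1 (343), a complex IV subunit, and Atp5g3 (341), which encodes the membrane ring subunit c. The highest members of the other complexes were Uqcrh (233 CPM per kb) in complex III, Ndufa3 (131) in complex I and Sdha (111), the flavoprotein subunit, in complex II. Cycs stood at 2.38 CPM per kb and Sdhd, a membrane anchor of complex II, at 1.11. Both are subunits without which the chain does not work, and 24.7% of the 100-base windows of Cycs also occur in other annotated genes, against 0% for Sdhd. How reads with several matches were counted is not stated in the labels or files used.

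In several sets of genes for 1 subunit, a single gene made up nearly all of the level per kilobase. Cox4i1 held 99.9% of the Cox4i pair, Cox6a1 99.2% of the Cox6a pair, Cox8a 99.9% of its set of 3 and Ndufa4 all but 0.0114% of its pair with Ndufa4l2. Cox7a2l, which helps to join complexes III and IV, held 91.6% of the Cox7a set, the ubiquitous Cox7a2 5.44% and the heart and muscle form Cox7a1 2.95%. In the Ndufb4 set no gene dominated, with 40.7% in Ndufb4, 45.8% in Ndufb4b and 13.5% in Ndufb4c, and 33.4% of the windows of Ndufb4 also occur in other genes. Of the 3 genes for the same subunit c protein, Atp5g3 held 93.2%, Atp5g1 5.40% and Atp5g2 1.43%. Cox6b2, known for its expression in testis, held 14.4% of the Cox6b pair (10.4 to 18.3% over the groups).

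On the mitochondrial chromosome, the counted level differed between genes with and without a near-identical copy annotated in the nuclear genome. The genes mt-COX2, mt-ATP6, mt-COX3, mt-ND3 and mt-ND4L share 97.6 to 99.9% of their 100-base windows, the read length, with unprocessed pseudogenes that lie side by side at 24.6 Mb on chromosome 1 (GRCm38). The shared share was 60.8% for mt-ND4, 30.8% for mt-COX1, 3.19% for mt-ND2 and 0% for mt-ND1, mt-ND5, mt-ND6, mt-CYTB and mt-ATP8. Mean levels of the 5 almost fully shared genes were 104 to 666 CPM per kb, against 15066 for mt-COX1, 11023 for mt-CYTB, 6791 for mt-ND1 and 2795 for mt-ND4. Only mt-ATP8, of 204 bases, was as low (179 CPM per kb) without a window shared with an annotated gene. On the mitochondrial chromosome it lies between mt-COX2 and mt-ATP6 and overlaps mt-ATP6. The sequence between the annotated nuclear copies of mt-COX2 and mt-ATP6 was not searched. The copy of mt-ND3 shows how close such copies are: over 345 bases it differs from the mitochondrial gene in 1 base, T3C counted from the start of the gene. The first 61 bases of the mitochondrial gene and of its copy Gm28438 (chr1:24612775-24613119) follow, 5′ to 3′ in the direction of the gene, with the base that differs in capitals.
mt-ND3: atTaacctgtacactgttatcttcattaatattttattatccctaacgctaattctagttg
Gm28438: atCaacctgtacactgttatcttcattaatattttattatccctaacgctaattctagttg
Nearly every window of 100 bases in the 5 almost fully shared genes has an exact match in a nuclear gene. Their levels are therefore set against another mitochondrial gene below only as read ratios compared between libraries. Between libraries their share was steadier: mt-COX2, mt-COX3 and mt-ATP6 together had 43.4 to 60.5 reads per 1000 reads of mt-COX1 over the 17 libraries.

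**Figure D1:**
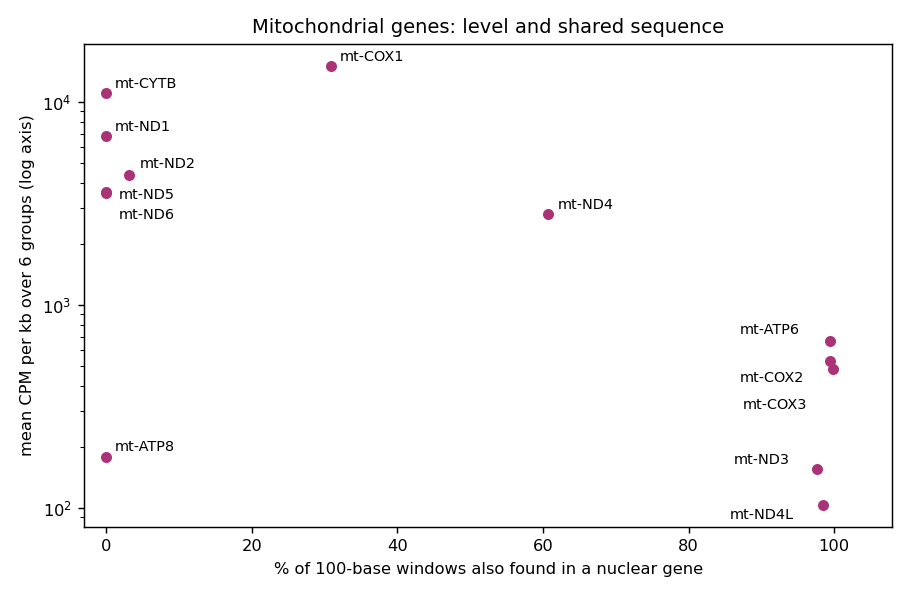
Mean level of each mitochondrial protein gene per kilobase (CPM per kb over 6 groups, log axis) against the percent of its 100-base windows that also occur in an annotated nuclear gene. The 5 genes at the right, with 97.6% or more of their windows shared, and mt-ATP8 at the lower left stand at 666 CPM per kb or lower, and the other 7 genes at 2795 or higher.

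The mitochondrial set varied far more between libraries than the nuclear set. The 13 mitochondrial genes took 12.9 and 11.7% of counted reads in WT DN2, and 3.57, 2.04 and 1.75% in TG DN2. Among young DN3a libraries they took 8.47, 6.18 and 2.92% in WT and 9.34, 6.24 and 8.52% in TG. Among old DN3a libraries they took 3.84, 6.42 and 3.40% in WT and 2.78, 3.15 and 3.29% in TG. WT DN2 thus lay above every other library, TG DN2 and TG old DN3a lay low and close together, and the 3 WT young DN3a libraries were spread over almost the whole range between them.

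The 89 nuclear members took 0.897 and 0.805% of reads in WT DN2, 0.836, 0.509 and 0.554% in TG DN2, 0.756, 0.731 and 0.848% in WT young DN3a, 0.618, 0.753 and 1.07% in TG young DN3a, 0.533, 0.714 and 0.779% in WT old DN3a and 0.769, 0.918 and 0.811% in TG old DN3a. These groups all overlap with at least 1 other, and the lowest libraries of TG DN2, TG young DN3a and WT old DN3a are the 4 in which the unnamed identifier took over 8% of reads. As a share of the reads outside that identifier and Lars2, the nuclear set ranged from 0.599 to 1.08% and the mitochondrial set from 2.05 to 12.97%.

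Reads of the mitochondrial set per read of the nuclear set are free of the library total. This ratio was 14.4 ± 0.112 (SD, n = 2) in WT DN2, 3.81 ± 0.579 (n = 3) in TG DN2, 7.70 ± 3.93 in WT young DN3a, 10.5 ± 4.04 in TG young DN3a, 6.85 ± 2.34 in WT old DN3a and 3.70 ± 0.318 in TG old DN3a. In single libraries it ran from 3.16 (TG DN2 replicate 3) to 15.1 (TG young DN3a replicate 1). All 3 TG old libraries (3.44 to 4.06) lay below all 3 WT old libraries (4.36 to 8.99), and all 3 TG DN2 libraries below both WT DN2 libraries. The WT and TG young DN3a libraries overlapped, with WT at 11.2, 8.45 and 3.44 and TG at 15.1, 8.29 and 7.96. WT young DN3a replicate 3, with the lowest mitochondrial share of its group, had the highest nuclear share. It is also the only young library that its label marks with the letter b, and the only one from a mouse of 3 weeks. Letter and age cannot be told apart in this library.

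**Figure D2:**
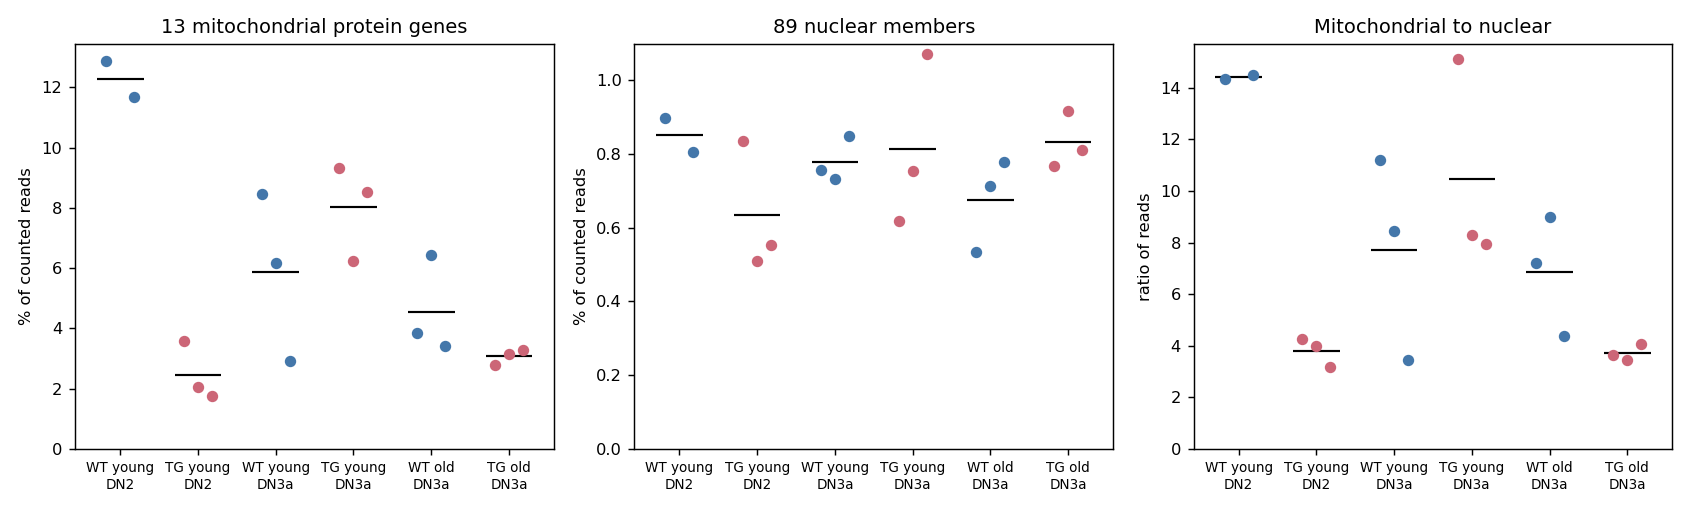
Percent of counted reads in the 13 mitochondrial protein genes (left) and in the 89 nuclear members (middle), and the ratio of the first to the second (right). Each point is a library (WT blue, TG red) and each bar a group mean. The mitochondrial share runs from 1.75 to 12.9% and is highest in the 2 WT DN2 libraries, while the nuclear share runs from 0.509 to 1.07%.

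In young DN2 cells, all 13 mitochondrial genes were lower in TG than in WT, and 19 of 84 nuclear members were lower and 0 higher (edgeR's quasi-likelihood test, Benjamini-Hochberg adjusted p under 0.05). Of all 13534 genes tested, 12.0% were called lower and 13.4% higher in this comparison. The median log2 fold change was -2.36 for the mitochondrial genes, -0.45 for the nuclear members and 0.03 for all genes. In the mitochondrial set no library of one genotype overlapped with the other for any gene, and in the nuclear set 29 members lay below without overlap and 2 above, beside 23.9 and 25.8% of all genes.

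Mitochondrial mt-COX1, the catalytic subunit of complex IV, stood at 47041 and 43950 CPM in WT DN2 and at 13735, 9844 and 8019 in TG DN2. That is a difference of -2.11 ± 0.46 (log2, SE), or 4.32-fold (adjusted p = 0.00268), the smallest of the 13. The cytochrome b gene mt-CYTB fell from 25743 and 23373 CPM to 6947, 4733 and 3619 (-2.27 ± 0.44, adjusted p = 0.0013). At the other end, mt-ATP8, a small subunit of the ATP synthase membrane part, had 109 and 62.0 CPM in WT and 15.7, 11.4 and 9.52 in TG (-2.80 ± 0.59, adjusted p = 0.00236). The complex I gene mt-ND4L had 72.5 and 56.0 CPM against 9.51, 10.9 and 10.2 (-2.66 ± 0.42, adjusted p = 0.000242). All 5 genes without a window shared with an annotated nuclear gene were among those called, with log2 fold changes from -2.27 to -2.80. Nuclear sequence outside annotated genes was not searched, and the part of reads with several matches was not tested. The mitochondrial ribosomal RNAs mt-Rnr1 (-1.18 ± 0.54, adjusted p = 0.114) and mt-Rnr2 (-1.18 ± 0.60, adjusted p = 0.157) did not pass the test.

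Among nuclear members, the calls were spread over the complexes: 7 of 17 genes of complex V were lower, against 6 of 38 in complex I, 3 of 16 tested in complex IV, 1 of 8 in complex III and 1 of 4 in complex II. Atp5h, subunit d of the stalk of ATP synthase, had 113 and 80.7 CPM in WT and 59.2, 31.7 and 28.4 in TG (-1.28 ± 0.26, adjusted p = 0.00197). Atp5k, subunit e, which takes part in pairing ATP synthase into dimers, had 40.1 and 32.8 CPM against 25.3, 9.82 and 10.7 (-1.24 ± 0.30, adjusted p = 0.00648). Both genes parted the genotypes without overlap, and both were lowest in TG replicates 2 and 3.

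The other members named by size were Cycs, Atp5g2 and Cox6b2. Cytochrome c itself, Cycs, had 18.2 and 6.51 CPM in WT DN2 and 4.90, 3.70 and 4.43 in TG (-1.50 ± 0.46, adjusted p = 0.0236), so that the size of its difference rested on WT replicate 1 (adjusted p = 0.515 without it). Atp5g2 had 8.31 and 5.51 CPM against 3.49, 2.74 and 2.35 (-1.26 ± 0.42, adjusted p = 0.0338), and Cox6b2 34.6 and 33.8 against 25.9, 11.9 and 10.6 (-1.07 ± 0.32, adjusted p = 0.0205). Without TG DN2 replicate 2 or 3 neither passed the test (adjusted p = 0.0951 and 0.114 for Atp5g2, 0.0883 and 0.0897 for Cox6b2). Of the 100-base windows of Atp5g2, 34.7% also occur in other genes. Most of the abundant subunits did not pass the test: Atp5b differed by -0.32 ± 0.22, Atp5a1 by -0.06 ± 0.23, Cox4i1 by -0.28 ± 0.22, Uqcrh by -0.08 ± 0.22 and Sdha by -0.32 ± 0.17. Sdhb, the iron-sulfur subunit of complex II, was the only called member of that complex (-0.55 ± 0.20, adjusted p = 0.0478).

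The nuclear calls depended on single libraries and the mitochondrial ones did not. Without WT DN2 replicate 1 a single nuclear member was called, without TG DN2 replicate 2 or 3 each time 3, without TG DN2 replicate 1 44, and with the share of the unnamed identifier as a covariate 1; all 13 mitochondrial genes were called in each of these fits. Without the 4 libraries rich in the unnamed identifier, which leaves TG DN2 with 1 library whose spread is taken from the other groups, 4 mitochondrial genes were called at a median of -1.82, and 0 nuclear members at a median of -0.07. With all libraries 34 nuclear members had an unadjusted p under 0.05, DESeq2 called 21 and limma 45. The summed level of 30 cell cycle genes moved with the genotype in these libraries, at 8866 and 8844 CPM in WT DN2 and 3158, 2197 and 3305 in TG DN2. So did 10 myeloid marker genes, at 34.0 and 35.0 CPM in WT and 132 to 171 in TG. Elane, S100a8 and S100a9 among them were at 0 in both. Of 6 mast cell markers, Fcer1a, Mcpt4, Cma1 and Tpsb2 were at 0 in both. The other 2, Cpa3 and Hdc, summed to 298 and 171 CPM in WT against 685 to 796 in TG. Neither of them was called (median log2 fold change -0.04). The part of these gene lists in the result was not tested.

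Between DN2 and DN3a, the chain's transcripts differed in opposite directions in the 2 genotypes. In TG young mice all 13 mitochondrial genes were higher in DN3a than in DN2 (median log2 difference 1.80), as were 15 nuclear members of 84, with 1 lower (median 0.39). Among all genes 12.8% were called higher and 13.2% lower, 26% together. In WT young mice all 13 mitochondrial estimates were negative (median -1.26), with 2 called and 13 at an unadjusted p under 0.05, and 2 nuclear members were lower and 0 higher (median -0.33), beside 3.64% of all genes lower and 2.93% higher (6.56% together). The TG DN2 and DN3a comparison and the genotype comparison in DN2 share the TG DN2 libraries.

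For mt-ND1, a core subunit of the complex I membrane arm, WT libraries had 14859 and 12287 CPM in DN2 and 7104, 4990 and 2648 in DN3a (-1.47 ± 0.42, adjusted p = 0.0428). TG libraries had 3757, 2324 and 1873 CPM in DN2 and 13842, 7852 and 10030 in DN3a (2.00 ± 0.39, adjusted p = 0.000935). No library overlapped between stages in either genotype, for this or the other 12 mitochondrial genes. Without overlap, 19.8% of all genes lay lower and 22.2% higher in WT DN3a, and 19.8% lower and 19.4% higher in TG DN3a. The other gene called in WT was mt-ND4L (-1.50 ± 0.41, adjusted p = 0.0343), with 35.1, 23.0 and 10.1 CPM in WT DN3a. Both WT calls were lost without WT DN2 replicate 1, or WT DN3a replicate 2 or 3, and that of mt-ND1 with the mouse as a block (adjusted p = 0.149); DESeq2 called 8 mitochondrial genes. Without the libraries rich in the unnamed identifier, 7 mitochondrial genes were called lower in WT and 1 higher in TG (median 1.12).

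Nuclear members with the largest rise from DN2 to DN3a in TG mice were Atp5k (1.13 ± 0.28, adjusted p = 0.0057), Atp5h (0.95 ± 0.24), Ndufa5 (0.88 ± 0.23), Atp5g3 (0.84 ± 0.21) and Ndufa1 (0.83 ± 0.25). Ndufa5 is an accessory subunit of the arm of complex I that takes up NADH; it had 27.3, 16.3 and 12.8 CPM in TG DN2 and 33.1, 34.2 and 37.0 in TG DN3a. Ndufa1, an X-linked accessory subunit of complex I, had 39.6, 23.7 and 22.7 CPM against 48.9, 44.2 and 59.8. Cox4i2, the alternative form of Cox4 known for its expression in lung, was the only member lower, but its 59 reads over all libraries came to 2.07, 0.644 and 1.57 CPM in TG DN2 and at most 0.251 in TG DN3a. In WT mice the 2 called were Atp5g2 (-1.47 ± 0.41, adjusted p = 0.0426) and Atp5k (-1.03 ± 0.30, adjusted p = 0.048). With the mouse as a block their estimates were -1.48 and -1.03, and neither passed the test (adjusted p = 0.157 and 0.104). In TG mice 5 nuclear members were called without TG DN2 replicate 2, 4 without replicate 3, 41 without replicate 1, and 0 without the libraries rich in the unnamed identifier; limma called 50.

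The test of the difference itself, genotype by stage, called 13 of 13 mitochondrial genes and 25 of 84 nuclear members, each more positive in TG (all genes: 20.9% called in either direction, 9.97% negative). The median interaction was 3.05 for the mitochondrial and 0.70 for the nuclear members, with -0.06 for all genes. Interactions of mitochondrial genes ran from 2.59 ± 0.61 for mt-COX1 to 4.11 ± 0.79 for mt-ATP8. Nuclear ones were largest for Cycs (2.30 ± 0.62, adjusted p = 0.0139), Atp5k (2.16 ± 0.41, adjusted p = 0.00145), Ndufc1 (1.72 ± 0.42, adjusted p = 0.00743), Atp5h (1.69 ± 0.36, adjusted p = 0.00302) and Atp5g2 (1.68 ± 0.57, adjusted p = 0.0453). Without WT DN2 replicate 1, which leaves 1 library in that group, the estimates were 1.35 for Cycs and 1.32 for Atp5g2. Ndufc1, a small accessory subunit of complex I, had 30.5 and 25.1 CPM in WT DN2 and 15.2, 11.3 and 17.2 in WT DN3a, but 22.0, 11.4 and 10.3 in TG DN2 and 22.4, 24.9 and 28.8 in TG DN3a. The counts were 8 mitochondrial and 1 nuclear without the libraries rich in the unnamed identifier. Leaving out WT DN2 replicate 1 left 4 nuclear calls. Cell cycle genes moved with this result: 29 of 30 were called positive in the interaction (median 2.51), 19 were lower in DN3a than in DN2 in WT and 16 higher in TG. The 10 myeloid markers summed to 132 to 171 CPM in TG DN2 and 19.9 to 38.1 in TG young DN3a, and to 34.0 to 35.0 and 30.03 to 41.7 in WT. Their part in the result was not tested.

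**Figure D3:**
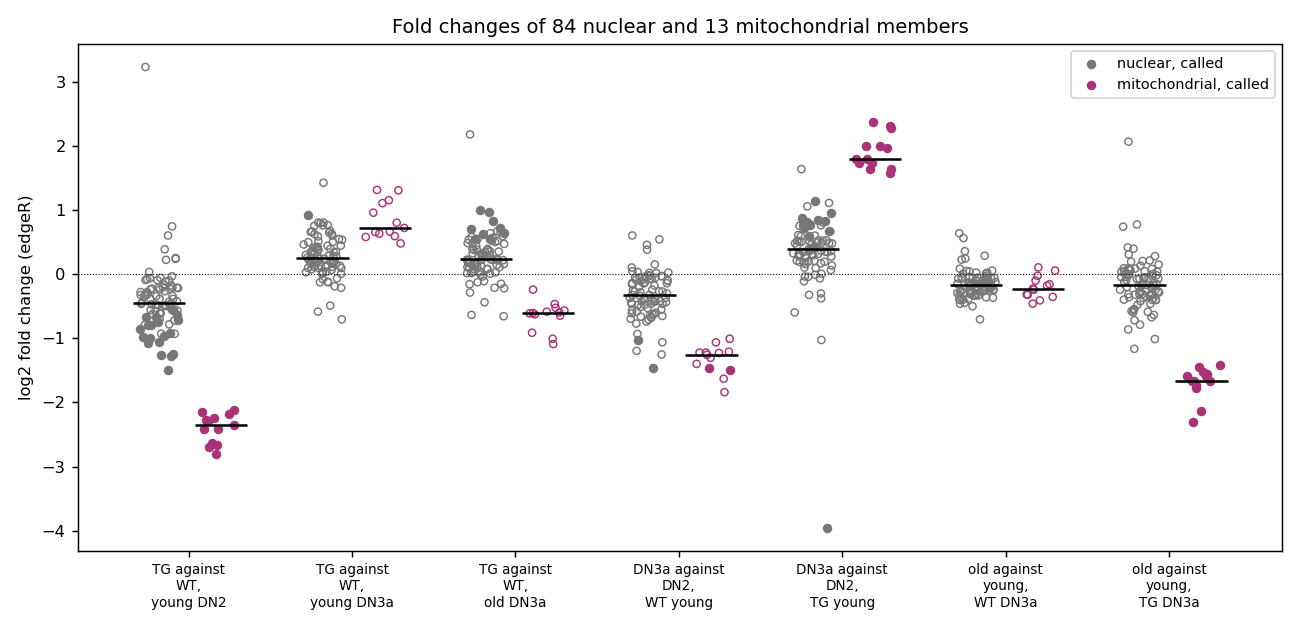
Log2 fold changes (edgeR) of the 84 tested nuclear members (grey) and the 13 mitochondrial genes (purple) in 7 comparisons. Each point is a gene, filled where its adjusted p is under 0.05, and the bar is the median of the set. The mitochondrial medians are -2.36 for TG against WT in young DN2 and 1.80 for DN3a against DN2 in TG, and in old DN3a cells the nuclear and mitochondrial medians lie on opposite sides of 0.

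Atp5k was called in 5 of the 9 comparisons, more than any other nuclear member. It had 18.2, 17 and 18.3 CPM in WT young DN3a and 34.8, 29.9 and 37.0 in TG young DN3a, the only nuclear call between the genotypes in young DN3a (0.93 ± 0.28, adjusted p = 0.0399; 4.68% of all genes were called higher and 5.14% lower, 9.81% together). In WT old DN3a it had 16.8, 18.6 and 15.3 CPM and in TG old DN3a 15.7, 22.1 and 21.1. High Atp5k was therefore seen in WT DN2 and TG young DN3a, and the other groups lay lower, TG DN2 being the most spread. Leaving out any of the 6 young DN3a libraries ended the young DN3a call (adjusted p of 0.0582 to 0.14), with estimates of 0.86 to 1.01.

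No other member passed the test between genotypes in young DN3a. The mitochondrial estimates were all positive in TG (median 0.72, up to 1.31), but 0 of 13 passed, 6 had an unadjusted p under 0.05, and DESeq2 called 3 and limma 2. For mt-ND4L, with the smallest adjusted p (0.0589), TG had 74.5, 33.7 and 44.0 CPM, overlapping with WT. The nuclear median was 0.25, with 74 of 84 estimates positive. In 21 nuclear members all TG libraries lay above all WT ones, that is 25.0% against 14.8% of all genes. DESeq2 called 6 nuclear members and limma 20.

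**Figure D4:**
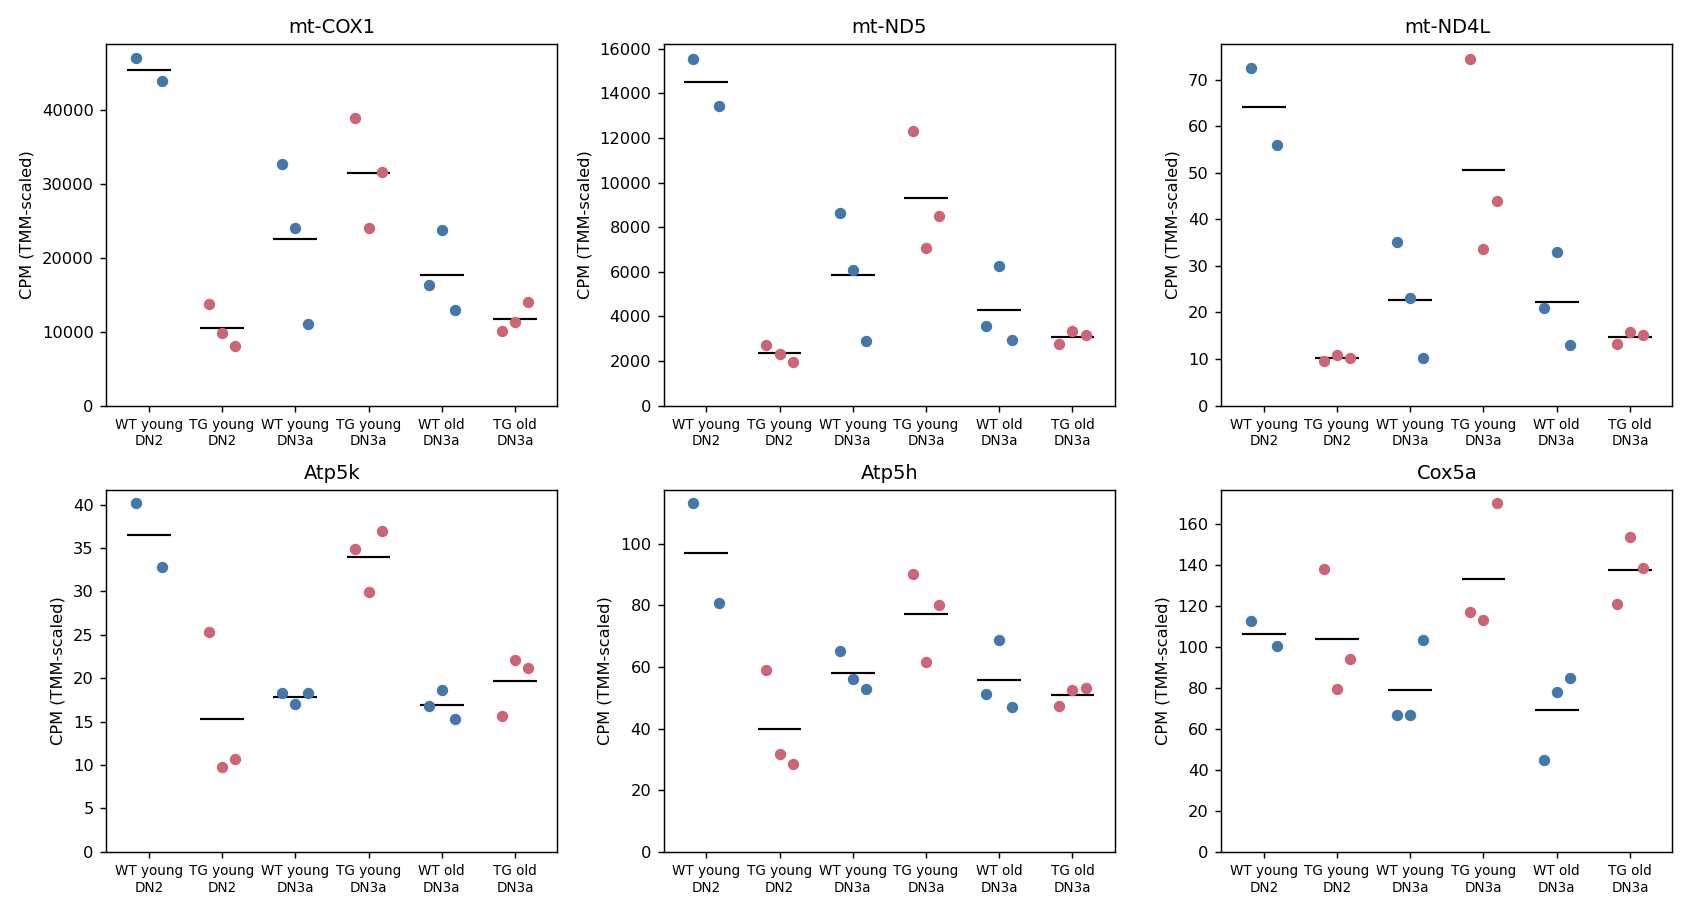
Levels of 3 mitochondrial genes (top) and 3 nuclear members (bottom) in each library, in TMM-scaled CPM, with group means as bars (WT blue, TG red). The mitochondrial genes and Atp5k are high in WT DN2 and TG young DN3a, while Cox5a is higher in TG than in WT in old DN3a, at 121 to 154 CPM against 45.0 to 84.7.

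In old DN3a cells the nuclear and mitochondrial sets lay on opposite sides of 0. Nuclear members were called higher in TG in 9 cases and lower in 0 (median 0.23), beside 14.9% of all genes higher and 15.7% lower (30.6% together), so the count as such is near the background. The mitochondrial genes were all lower in their estimates (median -0.61), with 0 called, 2 at an unadjusted p under 0.05 and 0 called by DESeq2 or limma. The library groups overlapped for 12 of the 13 mitochondrial genes, while 23.1% of all genes lay lower without overlap and 22.5% higher; of the nuclear members 18 lay higher and 1 lower. For mt-COX1 the values were 16302, 23823 and 12931 CPM in WT and 10062, 11318 and 13990 in TG (-0.58 ± 0.41, adjusted p = 0.299).

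The nuclear genes that rose came from all 5 complexes. Cox5a, a matrix-facing subunit of complex IV, had 45.0, 77.8 and 84.7 CPM in WT old and 121, 154 and 139 in TG old DN3a (0.99 ± 0.25, adjusted p = 0.00602). Cyc1, the cytochrome c1 of complex III, had 98.3, 75.1 and 97.8 CPM against 134, 195 and 153 (0.83 ± 0.20, adjusted p = 0.00383). Neither overlapped between genotypes. Ndufa6 of complex I had 10.3, 12.7 and 21.9 CPM against 21.1, 36.5 and 30.3 (0.97 ± 0.34, adjusted p = 0.0397), and here WT replicate 3 overlapped with TG.

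Uqcr10, a small complex III subunit, had 28.4, 37.3 and 35.5 CPM against 46.5, 65.5 and 54.4 (0.72 ± 0.27, adjusted p = 0.0497), and Atp5g3 128, 199.9 and 197 against 240.2, 322 and 290.2 (0.70 ± 0.21, adjusted p = 0.0178). Sdhb, Cox6a1, Cox8a and Ndufa9 were called as well, with log2 differences of 0.55 to 0.64. Cyc1 and Sdhb thus had opposite signs in the genotype comparisons of young DN2 (both lower in TG, Cyc1 by -0.63 ± 0.22) and old DN3a (both higher); that difference between the comparisons was not tested. The call count fell to 2 without WT old replicate 1 or TG old replicate 2, to 5 without TG old replicate 3, and to 3 without the libraries rich in the unnamed identifier. The 30 cell cycle genes summed to 1350 to 2814 CPM in WT old and 5987 to 7840 in TG old DN3a. Of the 6 mast cell markers 4 had no reads in either genotype. The other 2, Cpa3 and Hdc, summed to 11.4 to 62.6 against 656 to 1194, and only Cpa3 was called (4.56 ± 0.68). The part of either list in the result was not tested.

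With age, the mitochondrial set was lower in TG DN3a. All 13 genes were lower in old than in young TG mice (median -1.66, adjusted p of 0.00762 to 0.045), without overlap between libraries for any (15.1% of all genes lay lower in this way), and 0 of 84 nuclear members were called (8 at an unadjusted p under 0.05, 2 by DESeq2 and 3 by limma; all genes: 3.18% higher and 4.63% lower, 7.81% together). For mt-ND5, a large subunit of complex I, young TG libraries had 12317, 7088 and 8498 CPM and old ones 2758, 3329 and 3178 (-1.59 ± 0.37, adjusted p = 0.013). For mt-ATP8 they had 107, 26.9 and 44.8 against 8.47, 13.8 and 13.9 (-2.30 ± 0.55, adjusted p = 0.015). With the library letter as a covariate 0 of the 13 were called, at estimates of -1.24 to -2.15 (adjusted p of 0.062 to 0.208). Without TG young DN3a replicate 1 0 were called, at estimates of -1.21 to -1.65 (adjusted p of 0.0501 to 0.162). Young TG libraries all carry the letter a and old ones 1 a and 2 b. The old a library, TG old replicate 1, is also the only one from a mouse of 6 weeks, the 2 others being of 10 weeks. Letter and age in weeks therefore cannot be told apart within the old TG group. Leaving out TG old replicates 2 and 3 gave 3 and 5 calls, and leaving out the libraries rich in the unnamed identifier 1.

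In WT mice age gave 0 calls in both sets by edgeR, DESeq2 and limma. The medians were -0.23 for the mitochondrial and -0.16 for the nuclear members, with 0 and 1 gene at an unadjusted p under 0.05, and 0.0961% of all genes were called higher and 0.133% lower. Libraries did not overlap for 12 nuclear members lower and 1 higher in old mice, beside 7.00% and 7.25% of all genes. Whether age acted differently in the genotypes was tested as an interaction. Here 12 of the 13 mitochondrial genes had an unadjusted p under 0.05 (median -1.37), 0 passed the adjustment (adjusted p of 0.0891 to 0.342; DESeq2 called 3, limma 0), and the nuclear median was 0.02 with 2 genes at an unadjusted p under 0.05 (all genes: 0.983% called positive and 2.07% negative).

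In the young DN3a and stage comparisons, short genes had larger differences than long ones in both sets, while in old DN3a the short and longer nuclear members were alike in median (0.23 and 0.25). Of the mitochondrial genes, mt-ATP8 (204 bases), mt-ND4L (297) and mt-ND3 (348) had the 3 largest interactions of genotype with stage, 4.11, 3.81 and 3.998, and the 3 largest differences between genotypes in DN2. Together they had 5.07 and 6.67 reads per 1000 reads of mt-COX1 in WT DN2, 3.79 to 3.88 in TG DN2, 3.34 to 4.15 in WT young DN3a and 5.01 to 8.42 in TG young DN3a. Every library of WT DN2 and TG young DN3a thus lay above every library of TG DN2 and WT young DN3a. As mt-ND3 and mt-ND4L also share 97.6 and 98.5% of their windows with nuclear copies, length and shared sequence cannot be told apart for them.

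Among nuclear members the 36 under 600 bases had a median interaction of 1.03 and the other 48 one of 0.47. In TG against WT young DN3a these medians were 0.44 and 0.16. Across the 84 genes, which are not independent, Spearman's rho of length with the log2 fold change was -0.41 and -0.49 in these 2 comparisons, against -0.16 and -0.09 across all genes. With age in TG DN3a it was 0.39, against 0.155 across all genes, and in genotype by age 0.41, against 0.05. Across the 13 mitochondrial genes rho was 0.76 and 0.75 there, and 0.53 between genotypes in old DN3a. The 593 genes of any kind under 600 bases also had shifted medians. These were 0.70 for genotype by stage, 0.35 for TG against WT in young DN3a and -0.43 with age in TG DN3a. For TG against WT in young DN2 their median was -0.31, where the short members were at -0.50 and the longer ones at -0.34. What this shift of short genes contributes to the members' differences was not tested.

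**Figure D5:**
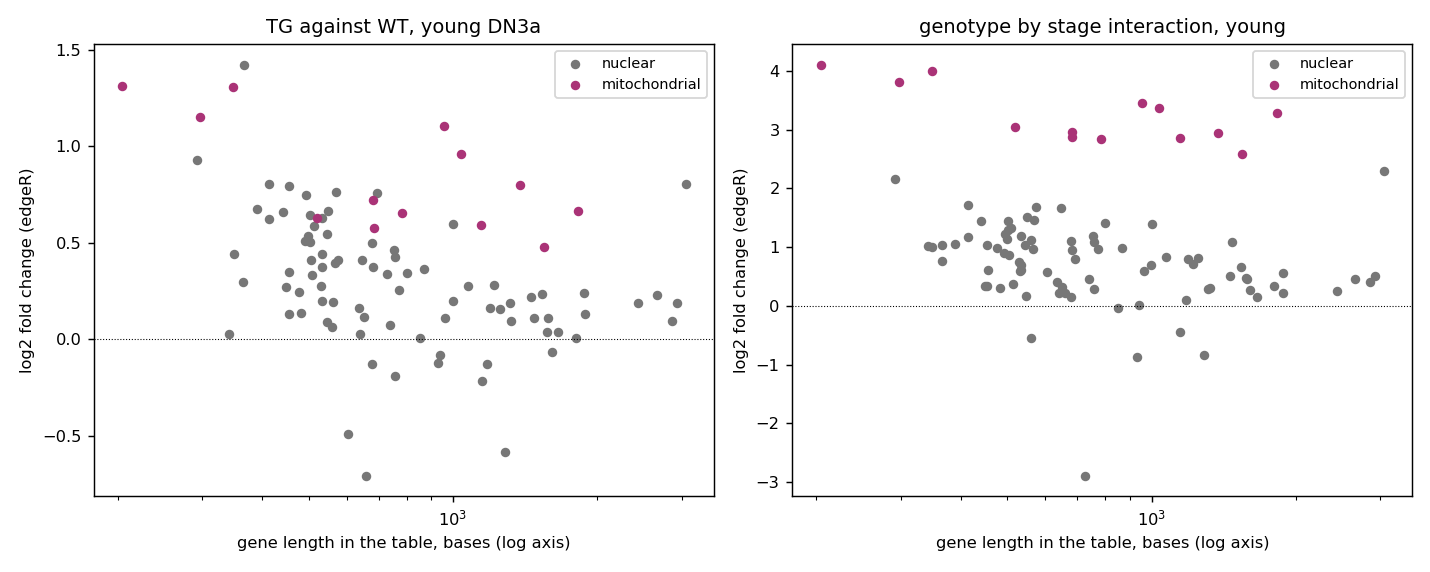
Log2 fold change (edgeR) against gene length in bases (log axis) for nuclear (grey) and mitochondrial (purple) members, in TG against WT young DN3a (left) and in the interaction of genotype with stage (right). Short members sit higher in both panels: nuclear members under 600 bases have medians of 0.44 and 1.03, longer ones 0.16 and 0.47.

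The promoters of nuclear members are known for sites of a small set of factors, among them NRF1 and the ETS protein GABP. RefSeq promoters (GRCm38.p6, 250 bases before to 50 after the start) were matched for 71 nuclear members and searched on both strands. The NRF1 motif was found in 23.9% of these members, against 11.6% of the 10166 tested genes with a promoter and 5.19% of all 27025. The ETS letters CCGGAAG were found in 23.9% against 20.4 and 9.93%, and the YY1 letters AAGATGGC in 14.1% against 5.34 and 3.19%. The SP1 letters GGGCGG were found in 42.3% of members, below the tested genes (66.9%) and above all genes (38.2%), and the MYC letters CACGTG in 8.45% against 11.7 and 8.09%. The 150 bases before the start are given for 4 of the members that were called both between stages in TG and in the interaction. These 4 are examples and not the whole set. Among the other members called in both, the NRF1 motif was found for Atp5g3 and Ndufa5. It was not found for Uqcr10, Cox7b, Ndufa1 and Cox5b, and no promoter was matched for Cox6c and Uqcrq. Each stretch lies on the minus strand of its chromosome and runs 5′ to 3′, with matches in capitals.
Atp5k: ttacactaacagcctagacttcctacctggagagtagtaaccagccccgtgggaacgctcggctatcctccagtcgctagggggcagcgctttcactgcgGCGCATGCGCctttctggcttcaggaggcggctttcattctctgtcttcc
Atp5h: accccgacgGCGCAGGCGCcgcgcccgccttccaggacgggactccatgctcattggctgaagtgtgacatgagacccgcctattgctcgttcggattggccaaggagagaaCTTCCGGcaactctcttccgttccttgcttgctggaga
Cox6a1: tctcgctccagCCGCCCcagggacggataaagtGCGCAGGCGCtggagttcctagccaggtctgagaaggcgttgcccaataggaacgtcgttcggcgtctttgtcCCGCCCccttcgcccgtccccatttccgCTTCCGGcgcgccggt
Ndufc1: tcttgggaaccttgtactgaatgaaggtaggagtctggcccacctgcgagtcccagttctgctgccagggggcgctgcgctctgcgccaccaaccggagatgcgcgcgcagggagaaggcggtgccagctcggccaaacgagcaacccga
Atp5k lies at chr5:108434400-108434549, Atp5h at chr11:115419920-115420069, Cox6a1 at chr5:115348959-115349108 and Ndufc1 at chr3:51408956-51409105. The capitals are an NRF1 match in Atp5k, an NRF1 and an ETS match in Atp5h, and an NRF1, an ETS and 2 SP1 matches in Cox6a1. Ndufc1 has none of the 5 in this stretch and a YY1 match elsewhere in the window that was searched.

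Genes around the chain were followed with lists that hold no member. Among all genes, 12.0% were called lower and 13.4% higher in TG than in WT DN2. From DN2 to DN3a in TG, 12.8% were called higher and 13.2% lower. Of 78 tested mitochondrial ribosomal protein genes, which translate the 13 mitochondrial messages, 17 were lower and 0 higher in TG than in WT DN2 (median -0.47), among them Mrpl51 (-0.99 ± 0.23) and Mrps22 (-1.08 ± 0.27). In TG mice 11 were higher and 0 lower in DN3a than in DN2, with Mrps22 at 0.87 ± 0.25, and in old DN3a 10 were higher and 1 lower in TG; both counts are near the share of all genes called higher, 12.8 and 14.9%. Among 19 genes of mitochondrial RNA processing and stability, 7 were lower in TG DN2, led by Rexo2, an exonuclease of small RNAs (-1.01 ± 0.22), and including Slirp (-1.18 ± 0.31). Lrpprc, the partner of Slirp in the stability of mitochondrial messages, was among the 6 that were higher in TG DN3a than in TG DN2 (0.83 ± 0.13; 1 was lower).

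Of 17 genes that replicate and transcribe mitochondrial DNA, 2 were lower in TG DN2 (Mgme1, -0.79 ± 0.23, and the helicase Twnk, -0.48 ± 0.15), a share close to the 12.0% of all genes called lower. The packaging factor Tfam (-0.15 ± 0.19, adjusted p = 0.589) and the RNA polymerase Polrmt (-0.26 ± 0.22, adjusted p = 0.42) did not pass the test there. Polg, the mitochondrial DNA polymerase, was higher in TG in young (1.91 ± 0.21) and old (1.90 ± 0.21) DN3a. Of 10 tested regulators of respiratory chain transcription, Myc (-1.20 ± 0.24) and Nrf1 (-0.56 ± 0.17) were lower in TG DN2, beside 12.0% of all genes. Gabpb1 (0.81 ± 0.17), Creb1 (0.57 ± 0.19) and Nrf1 (0.42 ± 0.15) were higher in TG old DN3a, beside 14.9% of all genes.

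Other parts of energy metabolism were less uniform. Among 14 genes of the tricarboxylic acid cycle, 3 were lower in TG DN2 (Fh1, Dlst and Idh3b), beside 12.0% of all genes. In TG mice 6 were higher and 1 lower in DN3a than in DN2, beside 12.8 and 13.2% of all genes. Cs, the gene of citrate synthase, was higher in TG old DN3a (0.61 ± 0.14), while Idh2 was lower (-0.47 ± 0.17). Of 19 glycolysis genes 3 were higher and 4 lower in TG DN2, beside 13.4 and 12.0% of all genes. Pfkp, a form of phosphofructokinase, went from -1.78 ± 0.19 there to 1.60 ± 0.17 in young and 2.13 ± 0.18 in old DN3a. Among assembly factors, beside 12.0% of all genes lower in TG DN2, 3 of 15 complex I factors were lower (Ecsit, Ndufaf4 and Ndufaf5), 1 of 6 for complex III (Uqcc2), 2 of 22 for complex IV (Cmc2 and Cox17), 1 of 4 for ATP synthase (Tmem70) and 0 of 4 for complex II.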

How the data were processed

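The deposited values are raw counts of single-end reads per Entrez gene identifier. The submitters' processing notes name featureCounts and mm10, and the labels' protocols give the read length. For the aligner, annotation, strand setting and reads with several matches: not given in the sources used here. A further WT young DN2 library of the design text was not analysed here. Names came from RefSeq (25275) or GENCODE (18), and 1886 stayed unnamed. In edgeR 4.0.16 under R 4.3.3, TMM scaling, filterByExpr and the quasi-likelihood fit (1 mean per group, all 17 libraries) were run over 13534 genes, with Benjamini-Hochberg adjustment over all of them at 0.05. Levels are TMM-scaled CPM, and errors of fold changes are SE. The common biological coefficient of variation was 0.244. DESeq2 1.42.0 and limma 3.58.1 (voom with quality weights) were alternatives, and the procedure was tested on simulated data. Sequence windows of 100 bases were compared with GENCODE transcripts (GRCm38). Members and lists were chosen with earlier results of these data known. Named members are the 13 mitochondrial genes, up to 5 nuclear members per direction and comparison with the largest called fold and at least 5 CPM, the highest and lowest per complex, isoform sets, and up to 4 called genes per list by adjusted p; other called members are named where a count is spelled out, after their values were seen. Deviations from group means of the 5 mice with both stages correlated at -0.07 to 0.19, and the mouse as a block was an alternative.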

Additional observations from a re-analysis of the deposited data

Results flagged for a closer look

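The effect of the stage differed between the genotypes by a test of the difference itself, the interaction of genotype with stage in young mice (edgeR, 2 to 3 libraries a group). It was called for 25 nuclear members and 13 mitochondrial genes. Among nuclear members it was 2.30 for Cycs (1.35 without WT DN2 replicate 1), 2.16 for Atp5k, 1.72 for Ndufc1, 1.69 for Atp5h and 1.68 for Atp5g2, on the log2 scale. Among the complex I genes of the mitochondrial chromosome it was 3.46 for mt-ND1, 3.36 for mt-ND2, 4.0 for mt-ND3, 2.95 for mt-ND4, 3.81 for mt-ND4L, 3.29 for mt-ND5 and 3.05 for mt-ND6. It was 2.86 for mt-CYTB, 2.59 for mt-COX1, 2.87 for mt-COX2, 2.84 for mt-COX3, 2.96 for mt-ATP6 and 4.11 for mt-ATP8.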

How the results depend on the processing

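Counts of called members moved with the fit more than directions did, and the cause was not tested. Between genotypes in young DN2, where edgeR called 19 nuclear members, limma called 45, the share of the unnamed identifier as a covariate left 1, and leaving out the 4 libraries in which it took over 8% of reads, chosen after seeing the data, left 0 nuclear and 4 mitochondrial calls. Leave-one-out counts there ran from 1 to 44 nuclear members and stayed at 13 mitochondrial genes. In young DN3a (1 nuclear and 0 mitochondrial calls), DESeq2 gave 6 and 3, limma 20 and 2, no filter 2 and 2, the unnamed identifier's share 9 and 1, the library letter 9 nuclear, the replicate block 3 mitochondrial, and leaving out the 4 libraries 7 nuclear; leave-one-out ranges were 0 to 8 and 0 to 3. In old DN3a (9 and 0), the share and the 4 libraries each gave 3 and 1, no filter 2 mitochondrial, and size factors by RLE, the letter and the replicate block 1 mitochondrial each; leave-one-out ranges were 2 to 12 and 0 to 3.

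Between stages in WT (2 and 2), DESeq2 gave 8 mitochondrial calls, limma 7 and 4, no filter 1 and 11, the letter 5 and 4, the replicate block 0 and 4, the share 0 and 4, the mouse as a replicate block 0 nuclear, and leaving out the 4 libraries 5 and 7; leave-one-out ranges were 0 to 7 for both. Between stages in TG (16 and 13), limma gave 50 nuclear, the share 8, and leaving out the 4 libraries 0 and 1; leave-one-out ranges were 4 to 41 and 13 to 13. With age in TG (0 and 13), RLE, no filter, sex, the letter, the replicate block and the share gave 1 nuclear call each, DESeq2 2 and limma 3; the letter left 0 and leaving out the 4 libraries 1 mitochondrial call, with leave-one-out ranges of 0 to 4 and 0 to 13. For genotype by stage (25 and 13), limma gave 47 nuclear, the share 14, and leaving out the 4 libraries 1 and 8; leave-one-out ranges were 4 to 43 and 13 to 13. For genotype by age (0 mitochondrial), DESeq2 gave 3, no filter 4, and leave-one-out 0 to 3.

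Per length, the log2 ratio of mitochondrial to nuclear reads was 3.43 in WT DN2 (3.85 by reads), 1.56 in TG DN2 (1.92) and 1.56 in TG old DN3a (1.89). Of the single genes followed, 1311 of 1419 alternative values of mitochondrial calls and 523 of 628 of named nuclear calls stayed past the threshold, and 0 changed sign. Only 13 of 54 mitochondrial and 3 of 23 named nuclear results stayed past it in every alternative. The genes followed were those that the main fit called. Many of the alternatives leave out a library from outside the groups compared. The shares that stayed are therefore no measure of how firm a call is.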
